A study of Mus musculus with 8 samples.

Results

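Pax6 binding sites at the ends of genes were examined in alphaTC1, a mouse cell line derived from glucagon-secreting islet alpha cells. A site belonged to the set if the authors' annotation placed it in a 3′ untranslated region (3′ UTR) or in one of the classes named Downstream, which cover the first 3 kb past a gene. These were 868 of 26244 listed sites (3.31%), of which 463 were in the 3′ UTR class and 405 in the Downstream classes. Antisense oligonucleotides had been given to the cells, either scrambled ones (control knockdown, called control KD here) or ones that target Paupar (Paupar KD). Paupar is a long non-coding RNA whose gene lies beside Pax6. Pax6 chromatin immunoprecipitation with sequencing (ChIP-seq) had 2 libraries per group, described as biological duplicates, and each group also had 2 input libraries, which were not analysed here. The read depth is unknown, and the assay gives no RNA levels, so neither the loss of Paupar nor the markers of the cells could be checked.

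Pax6 is a transcription factor with a paired domain and a homeodomain, needed for the endocrine cells of the islet, where it acts at the glucagon gene and other hormone genes. Transcription factors bind mostly at promoters and at distal enhancers. The end of a gene holds the 3′ UTR, the polyadenylation site and the stretch in which transcription stops, and it may also hold enhancers or the start of a neighbouring transcript. No genome of the files' build was used here, so the sequence of most gene-end sites is not shown. For 7 of the 868 sites, part of the 100 bp window overlapped the 300 bp around a start in RefSeq (250 bp before to 50 bp after it, GRCm38.p6, which shares its chromosome coordinates with mm10). These starts were those of Gm16008, Gm35409, Gm9054, Gm26802, 8430419K02Rik, 9030622O22Rik and 1700041B01Rik, transcripts that begin past the end of, or inside, another gene. No miRNA hairpin lay within 250 bp of a gene-end site.

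In 4 cases the start window held the middle of a Downstream site, and 30 bases of each (plus strand, 5′ to 3′, the 2 middle bases of the site in capitals) show what such a site looks like. They are the sites past Ttll10 (chr4:156031865-156031894), past Wdr63 (chr3:146038139-146038168), assigned to Plekho1 (chr3:95985438-95985467) and past Fosb (chr7:19300988-19301017).
Ttll10 end, start of Gm16008: cagaaaccactaccCCacagtaggtgctct
Wdr63 end, start of Gm35409: agttacctagtagcTGccctggcagtggca
Plekho1, start of Gm9054: ggctgctgttgttgGGagactgggaggtag
Fosb end, start of Gm26802: tagttagggagacaGGcactttaggcgctg
The paired-domain core TTCACGC (both strands) was in the 300 bp of 0 of the 7 starts, against 1.26% of 32851 RefSeq promoters of that length. The looser core TTCANGC, which contains the former, was at 1 of 7 against 10.8%, in 1 of the windows of 9030622O22Rik. The homeodomain core TAATTA was at 1 of 7 (Gm35409) against 5.29%. The polyadenylation hexamer AATAAA was at 3 of 7 against 19.6%. Some of the 7 had several start windows (15 in all) and counted if any of them held the motif. The shares of RefSeq promoters are per single window, so the units differ. None of the 4 motifs lay in the part that overlapped the site itself. The Wdr63 site had summit scores of 30.3 and 32.1 under control KD, against 20.7 and 35.6 under Paupar KD, so it was found in all 4. A summit score is the authors' value for a peak summit in 1 library, read as −log10 of its q-value, and it is given here to describe the summits of each library. It depends on read depth, so scores of different libraries are not compared. The Fosb site, past the gene of an immediate early factor, scored 7.76 and 7.68 in control KD, had no summit in Paupar KD replicate 1 and scored 15.2 in replicate 2.

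The position of the sites was measured against the gene ends of RefSeq. A gene end could be assigned to 776 of the 868 sites (89.4%), at 716 different genes, and 742 of these sites lay at protein-coding genes and 32 at long non-coding RNA genes. The 3′ UTR sites lay a median of 1509 bp before the end of the gene, and the Downstream sites a median of 1460 bp past it. The gene symbol in the authors' table is that of the nearest start. It was the gene whose end held the site for 508 sites (65.5%) and another gene for 268. For instance, the site assigned to Egflam lay before the end of Lifr, the leukaemia inhibitory factor receptor gene, and the site assigned to Uhrf2 lay 2075 bp past the end of Gldc, the glycine decarboxylase gene. Sites below are therefore named by the gene end, with the assigned gene in brackets where it differs. A RefSeq start lay within 3 kb of 39 sites. Of the 3′ UTR sites with an assigned end, 49 lay over 10 kb before it, so for these the annotated 3′ UTR was not at the RefSeq end.

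The Downstream classes were one-sided. Of the Downstream sites with an assigned gene end, 327 lay past minus-strand genes and 36 past plus-strand genes (90.1% minus, 95% exact binomial interval 86.5 to 93.0%), although 50.1% of the protein-coding genes used were on the minus strand. In the 3′ UTR class 46.2% were on the minus strand (41.4 to 51.2%). Sites themselves were not one-sided. The whole table held 771 sites within 3 kb past a plus-strand protein-coding end and 782 past a minus-strand end. Each site was counted once, at the nearest such end of either strand. Past minus-strand ends 306 of these were in the Downstream classes and 13 were called Distal Intergenic. Past plus-strand ends 31 were in the Downstream classes and 282 were called Distal Intergenic. The Downstream set of the authors' annotation is thus mostly a set of minus-strand gene ends, and every count below refers to it as annotated. The cause of this split was not tested.

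**Figure D1:**
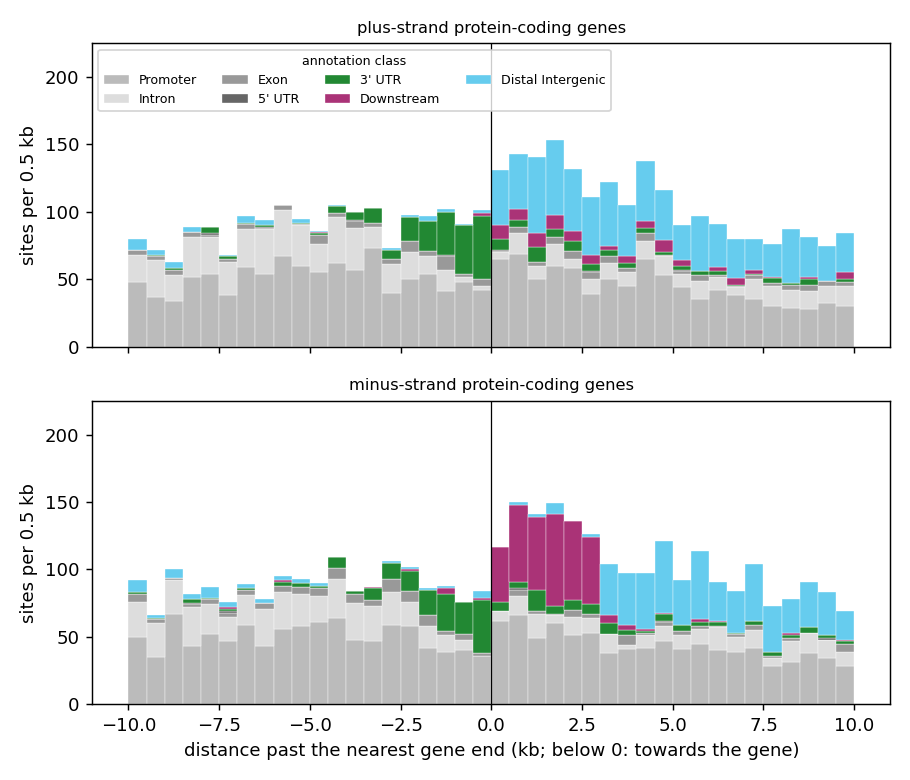
Number of listed sites in bins of 0.5 kb (vertical axis) against the distance of the site's middle from the nearest protein-coding gene end (horizontal axis, kb, values above 0 lie past the end), with plus-strand genes above and minus-strand genes below, coloured by the authors' annotation class. In the bin that starts 1500 bp past the end, the minus-strand panel holds 68 Downstream and 8 Distal Intergenic sites. The plus-strand panel holds 11 and 55 there, and the Promoter class has 60 sites in each panel. Each panel uses the nearest end of its own strand, so a site can be in both, and its counts differ from those in the text.

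The gene-end sites had a median signal close to that of the other classes away from promoters. Their median log2 mean concentration, the authors' normalised signal averaged over libraries, was 4.11, against 4.16 for intron, 4.23 for exon and 4.25 for Distal Intergenic sites, by the authors' deposited table. It was 5.15 for promoter sites and 4.42 over all sites by the authors' deposited table. The 3′ UTR sites had a median of 4.03 and the Downstream sites one of 4.22 in the authors' deposited table. In the lowest quartile of signal over all sites lay 29.0% of the gene-end sites, and in the highest 16.7%. Where the gene of the end also had a promoter site in the table (313 sites at 284 genes), the strongest promoter site had the higher signal for 240 of them (76.7%). The medians of the pairs were 4.07 at the end and 5.53 at the promoter in the authors' deposited table, and part of this gap follows from taking the strongest promoter site of each gene.

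The strongest gene-end sites were found in every library. At Map3k21, a mixed-lineage kinase gene, a site 1151 bp before the end (chromosome 8, 125946240 to 125946339, mm10) scored 757 and 351 under control KD, against 622 and 731 under Paupar KD. Its concentrations were 9.21 and 9.36, control KD first as in all pairs of values below (FDR, the authors' false discovery rate, 0.743) in the authors' deposited table. This site was the strongest of all 868. The next was 114 bp past the end of the predicted gene Gm14204 (chromosome 2, 158595309 to 158595408), with scores of 375 and 250 in control KD and 299 and 371 in Paupar KD. Its concentrations fell from 9.28 to 8.55 (FDR 0.0345, the authors' deposited table), the smallest change among the 26 called sites. The third, assigned to 1700012C14Rik, scored 343, 183, 321 and 365 and had 8.55 and 8.84 (FDR 0.466, the authors' deposited table). Sites 1680 bp before the end of 6430571L13Rik and 2700 bp past the end of Asic2 (assigned to Spaca3), an acid-sensing ion channel gene, followed. They had 8.60 and 7.91 (FDR 0.0555), and 8.14 and 7.72 (FDR 0.354), by the authors' deposited table. The other 5 of the strongest 10 lay past Gp1bb, Stac2 (assigned to Rpl19), Rrp1 and Tmem235 and before the end of C130050O18Rik. Their control KD concentrations were 7.59 to 8.13 and their Paupar KD concentrations 6.97 to 7.54 in the authors' deposited table, and Rrp1 was the only one of the 5 called. All 10 had a summit in all 4 libraries.

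**Figure D2:**
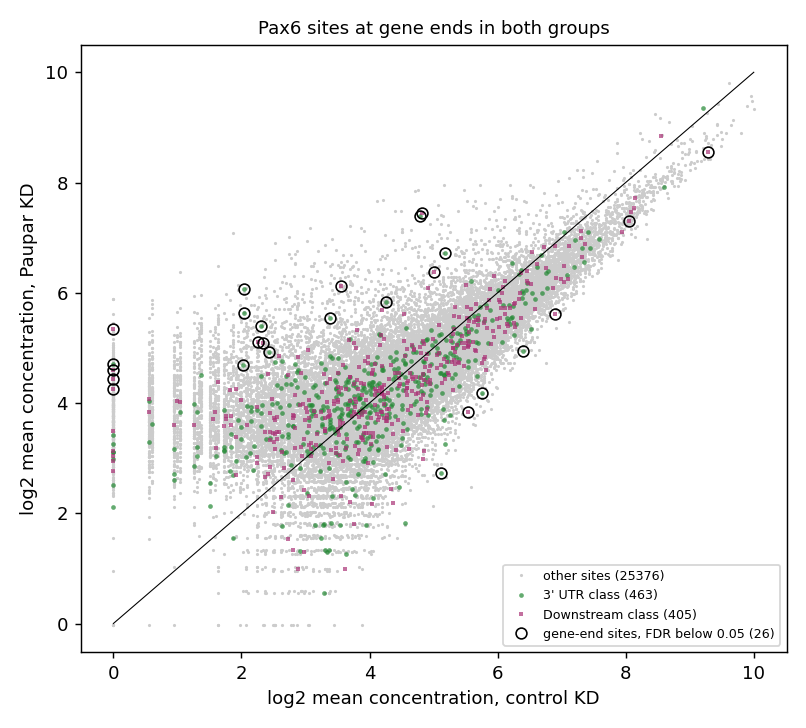
Log2 mean concentration in Paupar KD (vertical axis) against control KD (horizontal axis) for every listed site, with gene-end sites in colour by class, other sites in grey, called gene-end sites ringed and the line of equal values drawn. Most gene-end sites follow the cloud of the other sites, 19 ringed sites lie above the line and 7 below it, and 5 of the ringed sites stand at the left edge, where control KD is at the floor of the table.

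The authors' deposited table called 19 gene-end sites higher after Paupar KD and 7 lower (FDR under 0.05). This is 2.19% and 0.806% of the 868 sites (exact binomial 95% intervals 1.32 to 3.40% and 0.325 to 1.65%), against a background of 3.26% and 0.846% over all 26244 sites. Those shares are near the background, so the gene-end sites as a group did not stand out by the number called. The median log2 change (Paupar KD minus control KD) was 0.005 over the gene-end sites and -0.03 over all sites in the authors' deposited table. The higher sites were weak in control KD, with a median concentration of 2.30 that reached 5.39 in Paupar KD, by the authors' deposited table. The lower sites started from a median of 6.39, against 4.95 in Paupar KD, by the authors' deposited table. Of the 19 higher sites 10 were in the 3′ UTR class and 9 in the Downstream classes, and of the 7 lower sites 3 and 4.

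**Figure D3:**
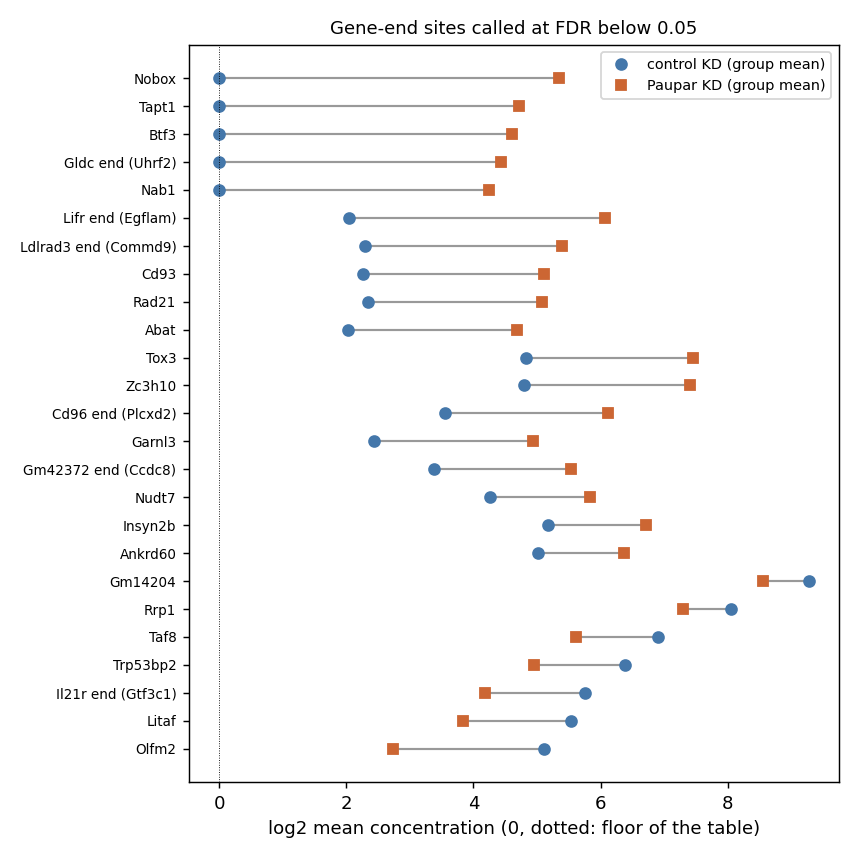
Log2 mean concentration (horizontal axis) in control KD (circles) and Paupar KD (squares) at all but 1 of the 26 gene-end sites with an FDR below 0.05, ordered by log2 change and named by the gene end with the assigned gene in brackets where it differs. The 5 sites at the top start at the dotted floor in control KD, Tox3 and Zc3h10 end highest among the higher sites, and Gm14204 and Rrp1 are the strongest of the lower sites.

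The rise with the lowest FDR was past the end of Tox3, which encodes a high mobility group box factor found in neurons. The site (chromosome 8, 90244840 to 90244939) lay 2221 bp past the gene, 103187 bp from its start. Its summits scored 22.6 and 10.2 under control KD, against 134 and 152 under Paupar KD, and every library had a summit. Concentrations rose from 4.82 to 7.45, a log2 change of 2.62 (FDR 3.31e-10), by the authors' deposited table. The strongest promoter site of Tox3 had 5.30 and 5.44 (FDR 0.917, the authors' deposited table). A site assigned to Zc3h10, a CCCH zinc finger gene, was in the 3′ UTR class but lay 460 bp past the RefSeq end (chromosome 10, 128543051 to 128543150). It scored 13.4 in control KD replicate 1, had no summit in replicate 2, and scored 139 and 86.6 in Paupar KD. Its concentrations rose from 4.79 to 7.40 (log2 change 2.62, FDR 7.22e-08) by the authors' deposited table. Both sites already had a summit in control KD replicate 1 and had the lowest FDRs of the 26.

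Of the other rises, those at enzyme genes are given first, an order chosen for description. At Abat, which encodes the transaminase that breaks down the transmitter GABA, a site 1504 bp before the end had no control KD summit, Paupar KD scores of 10.5 and 6.23, and a rise from 2.02 to 4.69 (FDR 0.0417, the authors' deposited table). At Nudt7, a peroxisomal coenzyme A diphosphatase gene, a site 802 bp before the end scored 14.7 in control KD replicate 1, had no summit in replicate 2, and scored 49.3 and 26.6 in Paupar KD. It rose from 4.26 to 5.84 (FDR 0.0428, the authors' deposited table). The site past Gldc (assigned to Uhrf2) was listed at the control KD floor and at 4.43 in Paupar KD (FDR 0.0249, the authors' deposited table), with Paupar KD scores of 7.80 and 6.53. The strongest promoter site of Abat had 4.99 and 4.33 (FDR 0.661) and that of Nudt7 5.75 and 5.64 (FDR 0.934, the authors' deposited table), so the site at the gene end was the one called in each pair.

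Next come the rises at receptor and surface protein genes. Before the end of Lifr (assigned to Egflam), a 3′ UTR site scored 59.2 and 12.6 in Paupar KD and had no summit in control KD, and it rose from 2.04 to 6.07 (log2 change 4.03, FDR 0.0218) by the authors' deposited table. Past Cd96 (assigned to Plcxd2), an immunoglobulin family receptor gene of T and natural killer cells, a site scored 3.68 in control KD replicate 1 and 54.4 and 36.1 in Paupar KD. It rose from 3.56 to 6.12 (FDR 0.000661, the authors' deposited table). Past Cd93, a lectin-like receptor gene of endothelial and myeloid cells, a site 305 bp from the end rose from 2.26 to 5.11 (FDR 0.0156, the authors' deposited table), with scores of 26.1 and 7.0 in Paupar KD alone. Before the end of Ldlrad3 (assigned to Commd9), an LDL receptor domain gene, a site rose from 2.30 to 5.39 (FDR 0.00193, the authors' deposited table), with scores of 32.3 and 11.6 in Paupar KD alone. Binding near Cd96 and Cd93 says nothing of their expression, which was not measured.

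The last of the rises lay at genes of other kinds. Past Rad21, which encodes the kleisin subunit of cohesin, a site rose from 2.34 to 5.08 (FDR 0.0134, the authors' deposited table), with Paupar KD scores of 18.2 and 13.9 and no control KD summit. At Insyn2b, an inhibitory synapse factor gene, a 3′ UTR site lay 60325 bp before the RefSeq end. It had summits in all 4 libraries (26.3 and 3.34 in control KD, 99.9 and 44.4 in Paupar KD). Concentrations there rose from 5.18 to 6.72 (FDR 0.0183, the authors' deposited table). The strongest promoter site of Insyn2b also went up, from 1.37 to 4.16, without being called (FDR 0.156, the authors' deposited table). That of Lifr had 4.82 and 3.98 (FDR 0.528, the authors' deposited table). Past Ankrd60, an ankyrin repeat gene, a site scored 22.6 in control KD replicate 1 and 47.8 and 54.9 in Paupar KD, and it rose from 5.01 to 6.37 (FDR 0.0334, the authors' deposited table). At Garnl3 and at the predicted gene Gm42372 (assigned to Ccdc8), 3′ UTR sites rose from 2.43 to 4.93 (FDR 0.0345) and from 3.38 to 5.54 (FDR 0.0134, the authors' deposited table). Neither had a control KD summit, and their Paupar KD scores were 18.2 and 13.4, and 30.8 and 11.2. The Garnl3 site lay 68004 bp before the RefSeq end of its gene. Sites at Tapt1, Btf3, Nab1 (an EGR co-repressor gene) and Nobox (an oocyte homeobox gene, the assigned gene) were listed at the control KD floor and at 4.71, 4.60, 4.25 and 5.34 in Paupar KD, with FDRs of 0.00478 to 0.0371, by the authors' deposited table. At Btf3, Nab1 and Nobox the sole summit was in Paupar KD replicate 1 (scores of 16.1, 8.29 and 36.7).

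Over the 19 higher sites, 13 had no summit in either control KD library. Of all gene-end sites 3.8%, 32.6% and 7.6% had no control KD summit and 0, 1 or 2 Paupar KD summits. Over all sites these shares were 3.54%, 29.5% and 8.26%. The calls come from the same libraries as the summits, so the 13 only describe the called sites. Paupar KD replicate 1 had a summit at all 19 and replicate 2 at 16. No value per library stands behind the concentrations, so no call could be repeated without a library.

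Of the 7 lower sites, 4 had a summit in every library, and these include Gm14204 above. The site 2900 bp past Taf8, which encodes a subunit of the general factor TFIID (chromosome 17, 47480415 to 47480514), scored 20.8 and 14.9 in control KD and 8.12 and 14.1 in Paupar KD. All 4 libraries had a summit, and concentrations fell from 6.90 to 5.61 (log2 change -1.29, FDR 0.00853) by the authors' deposited table. The other 2 sites at the end of Taf8 had 4.06 and 3.45 (FDR 0.752), and 3.77 and 3.93 (FDR 0.944), by the authors' deposited table. The site 920 bp past Rrp1, a ribosomal RNA processing gene, scored 54.4 and 48.1 in control KD and 45.2 and 52.0 in Paupar KD, and fell from 8.05 to 7.30 (FDR 0.0417, the authors' deposited table). The site 476 bp before the end of Trp53bp2, which encodes the p53-binding protein ASPP2, scored 15 and 11.5 in control KD and 9.05 and 9.23 in Paupar KD. It fell from 6.39 to 4.95 (FDR 0.0199, the authors' deposited table).

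At 3 of the lower sites a Paupar KD library lacked a summit. The site 2102 bp past Litaf, an endosomal membrane protein gene, scored 26.4 and 14.5 in control KD and had no summit in either Paupar KD library. It fell from 5.53 to 3.84 (FDR 0.0431, the authors' deposited table). The site before the end of Il21r (assigned to Gtf3c1), the interleukin 21 receptor gene, scored 16.2 and 15.3 in control KD and 8.84 in Paupar KD replicate 2 alone, and fell from 5.76 to 4.18 (FDR 0.0447, the authors' deposited table). A further site, assigned to Olfm2, an olfactomedin gene, had a summit in control KD replicate 1 alone (8.0) and fell from 5.11 to 2.73 (FDR 0.0495, the authors' deposited table). The sites just outside the threshold were at Fam53b (6.52 and 5.34, FDR 0.0507), Tmem235 (7.95 and 7.11, FDR 0.0535) and 6430571L13Rik (FDR 0.0555, the authors' deposited table).

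The direction of change followed the strength of the signal, in gene-end sites as in the whole table. In the lowest quartile of signal the median log2 change of the gene-end sites was 0.615, against 0.72 for all sites, and in the highest it was -0.35 against -0.36, by the authors' deposited table. In the third quartile the gene-end sites had -0.285 and all sites -0.12 in the authors' deposited table. Of the gene-end sites in the highest quartile 79.3% lay below 0, and 4 of 145 were called higher and 4 lower. This is 2.76% in each direction, near the 2.99% higher and 2.87% lower of all sites in that quartile, by the authors' deposited table. Since signal enters both the quartile and the change, the trend is a description of the table.

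**Figure D4:**
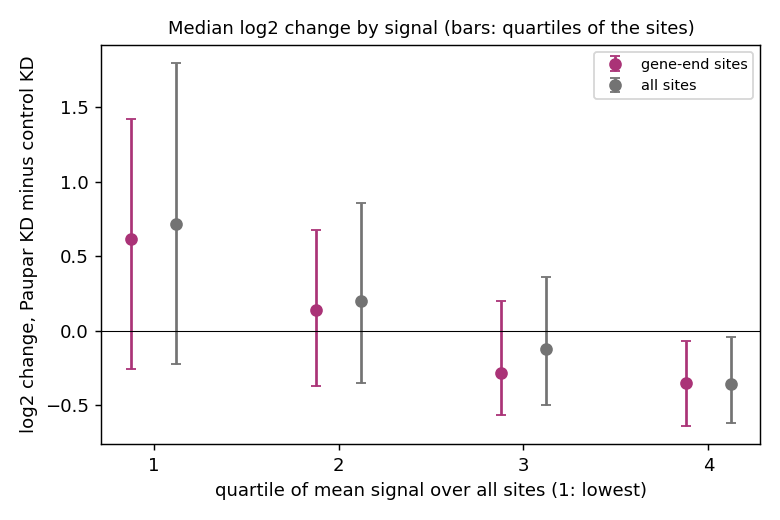
Median log2 change, Paupar KD minus control KD (vertical axis), of gene-end sites and of all sites in each quartile of mean signal (horizontal axis, 1 is the lowest), with bars from the lower to the upper quartile of the sites. The medians go from 0.615 to -0.35 for gene-end sites and from 0.72 to -0.36 for all sites.

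Of the sites at genes of the islet lists, 3 of 123 in the alpha-cell list, 2 of 66 in the beta-cell list and 5 of 125 in the islet transcription factor list were gene-end sites, close to the 3.31% of the whole table. None of these was called, where 3.0% of all gene-end sites were, and with so few sites a count of 0 says little. By the authors' deposited table, 13 of all 123 alpha-cell list sites, most outside the gene-end set, were called higher and 1 lower. In the beta-cell list 6 of 66 were called higher and 0 lower, and in the islet transcription factor list 6 of 125 and 0. The shares over all 26244 sites were 3.26% higher and 0.846% lower. Whether these lists differ from all sites was not tested, and they were chosen with earlier results of these data known. Such counts for the other lists are not given here. Gcg, which encodes the glucagon precursor, had a site 593 bp past its end whose sole summit, scoring 19.8, was in Paupar KD replicate 2, and concentrations of 3.38 and 4.43 (FDR 0.551, the authors' deposited table). The other sites of the alpha-cell list were at Fev, a serotonergic and islet ETS factor gene (5.30 and 5.26, FDR 0.984), and at the imprinted gene Peg3 (3.56 and 3.90, FDR 0.901), by the authors' deposited table. No library had a summit within 250 bp of the Fev site. In the beta-cell list the site 2885 bp past Nkx6-1, a homeodomain factor gene of beta cells, was found in every library with scores of 119 and 38.7 in control KD and 63.1 and 95.9 in Paupar KD. Its concentrations were 7.30 and 7.12 (FDR 0.805, the authors' deposited table). Syt13, a synaptotagmin gene, had 3.36 and 3.53 (FDR 0.957, the authors' deposited table).

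Of the islet transcription factor list, 5 genes held a gene-end site. The site 917 bp past Isl1, a LIM homeodomain gene (chromosome 13, 116297304 to 116297403), scored 15.7 and 25.4 in control KD and 36.7 and 19.2 in Paupar KD, with concentrations of 6.09 and 6.10 (FDR 0.996, the authors' deposited table). The site past Foxa2, a forkhead pioneer factor gene, overlapped a start window of the lncRNA 9030622O22Rik and had 4.89 in both groups (FDR 0.998, the authors' deposited table). That past Meis1, a TALE homeobox gene, overlapped a start window of 8430419K02Rik and had 5.31 and 5.0 (FDR 0.801, the authors' deposited table). In both cases the sole summit was in Paupar KD replicate 2, with scores of 6.82 and 2.87. The site 389 bp past the RefSeq end of Pax6 itself had 3.17 and 3.76 (FDR 0.824, the authors' deposited table) and a summit in control KD replicate 1 alone (2.66).

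The other gene lists gave the same count. Over the 18 lists 101 gene-end sites (11.6%) were at a listed gene, by its end or by assignment, and 0 of them passed an FDR of 0.05 in the authors' DiffBind comparison, 10 having an unadjusted p below 0.05, by the authors' deposited table. Over all gene-end sites 3.0% were called and 13.1% had such a p, and over all sites 4.1% and 17.3%, by the authors' deposited table. Their median log2 change was 0.14, against 0.005 over all gene-end sites, and their lowest FDR was 0.0961, at Zbtb25 (4.55 and 1.82), by the authors' deposited table. Of the genes for hormone secretion and processing, the list held 4 sites, at Syt7 (2 sites, assigned to Lrrc10b), Chga and Zranb3 (assigned to Rab3gap1). Among them the Syt7 site at 2.30 and 4.49 had the lowest FDR (0.120) in the authors' deposited table. Potassium channel genes had 9 sites, led by Kcnc4 (6.46 and 6.40, FDR 0.959) by the authors' deposited table, and islet ion channel genes had 1. Cyclic AMP and insulin signalling genes had 8, of which the sites at Tsc1 (9195 bp before the RefSeq end, 6.21 and 5.55, FDR 0.349) and at Pde4b (101303 bp before it, 4.96 and 5.33, FDR 0.766) were found in all 4 libraries, with values from the authors' deposited table. Solute carrier genes had 29 sites, 6 of them found in all 4 libraries. The strongest of the 29 in the authors' deposited table, at Slc23a3 (7.10 and 6.25, FDR 0.140), had a summit in 2 libraries.

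The remaining lists can be given by counts. Zinc finger genes had 14 sites, Wnt and TGF-beta signalling genes 6, chromatin regulator genes 6, Rab and TBC domain genes 6, ribosomal protein genes 5, cadherin and protocadherin genes 3, histone genes 2 and RNA-binding and splicing factor genes 1. Their strongest sites were at Zfp36l2 (6.34 and 5.89), Acvr1b (assigned to AU021063, 5.54 and 4.76), Cntnap1 (assigned to Ezh1, 6.19 and 5.44), Tbc1d2b (assigned to Adamts7, 4.04 and 4.30), Stac2 (assigned to Rpl19, 8.08 and 7.46), Pcdh1 (5.88 and 5.69), H3f3a (the assigned gene, with no end matched, 4.34 and 4.69) and Rbfox3 (assigned to Engase, 3.80 and 3.54) in the authors' deposited table. The lists of polyadenylation and termination factors and of the neural and eye Pax6 programme had 0 gene-end sites, with 18 and 62 sites elsewhere in the table. Most gene ends held a single site (662 ends), 48 held 2, and 6 held 3, at Hjurp, Lrrc75b, Sars, Shb, Taf8 and Tmem44. The strongest of the Tmem44 sites, in the 3′ UTR class, had 7.45 and 6.81 (FDR 0.241, the authors' deposited table).

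The summit lists allowed the libraries to be compared one by one. A summit within 250 bp of the site's middle was found at 413 and 251 of the 868 gene-end sites in control KD replicates 1 and 2, and at 429 and 504 in Paupar KD replicates 1 and 2. Control KD replicate 2, which had the shortest list (9983 summits), stood below the other libraries, and control KD replicate 1 was close to Paupar KD replicate 1. The means were 332.0 ± 114.6 (SD, n = 2) and 466.5 ± 53.0 (SD, n = 2), a ratio of 1.41 (exact permutation test, two-sided, p = 0.33, and 4 libraries allow none smaller). Over all sites the ratio was 1.39. With each list cut to its 9983 highest-scoring summits the log2 ratio at gene-end sites went from 0.491 to -0.047. The excess in Paupar KD was thus not seen among the strongest summits. This cut makes the totals equal and drops the weaker summits of the longer lists, so it says nothing of those. The cause of the excess was not tested.

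**Figure D5:**
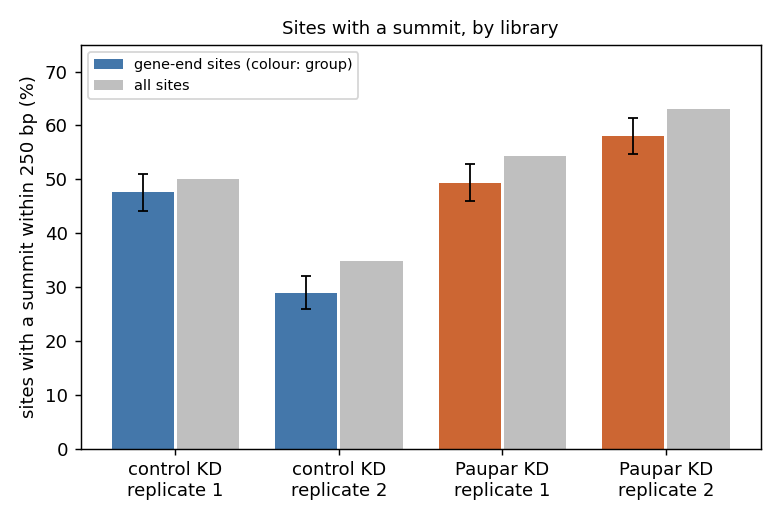
Share of gene-end sites (coloured bars, with 95% exact binomial intervals that cover counting error alone) and of all sites (grey bars) that had a summit within 250 bp (vertical axis, %) in each Pax6 ChIP library (horizontal axis). Control KD replicate 2 is lowest (28.9% of gene-end sites) and Paupar KD replicate 2 highest (58.1%), and in each library the share of gene-end sites is below that of all sites.

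The libraries shared part of the gene-end sites, and the shares are given with no test of their difference from all sites. A summit in all 4 libraries was found at 140 of them (16.1%), against 20.0% of all sites, and a summit in a single library at 446 (51.4%), against 43.9%. Within the highest quartile of signal 71.7% of the gene-end sites were found in all 4 libraries, against 59.1% of all sites. Summits in both Paupar KD libraries and neither control KD library lay at 66 gene-end sites, of which 10 were called higher, and the opposite pattern at 9, of which 1 was called lower. Over all sites the first pattern held for 2167 (8.26%, against 7.60% of gene-end sites), with 19.2% called higher against 15.2%, and the second for 385 (1.47%, against 1.04%), with 14 called lower. The median log2 change of the 66 was 0.72, and 77.3% of them lay above 0, by the authors' deposited table. By concentration the strongest of the 66 were at Pcdh1, Ssc4d, 6820408C15Rik, Zfp335 (assigned to Pcif1) and St3gal2 (assigned to Ddx19a). They had 5.49 to 5.88 in control KD, 5.27 to 5.69 in Paupar KD and FDRs of 0.856 to 0.922 by the authors' deposited table, so at these 5, picked for high concentration, the concentrations were slightly lower in Paupar KD. The 5 strongest of the 9 were assigned to 4930455J16Rik (7.30 and 6.99, FDR 0.627), Ints10 (5.53 and 4.66, FDR 0.354), Litaf, Rfx5 (5.16 and 4.50, FDR 0.562) and Ttc3 (4.80 and 3.89, FDR 0.474) by the authors' deposited table. At 4930455J16Rik the Paupar KD summits lay 381 and 340 bp from the middle of the site, outside the 250 bp allowed, and the control KD summits 167 and 206 bp from it.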

How the data were processed

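Bowtie2, MACS2, DiffBind and ChIPseeker are named without versions, and mm10 as the build, per the submitters' processing notes. For DiffBind's test, its normalization and the role of the inputs, the answer is: not given in the sources used here. In the table of sites are the authors' mean concentrations per group and fold, read as deposited log2 values, with no value per library. The sign of the fold was turned, so that a positive log2 change is higher in Paupar KD. The authors' deposited p-values and FDRs were used unchanged, and an FDR below 0.05 was a call. The FDR of 45 gene-end sites stood at 1 beside a lower p-value, and these were kept in all counts as not called. Concentrations at or below 0 are called the floor. Summit scores are the authors' values, read as deposited −log10 q-values from their lowest value of 2.00 to 2.01. There was 1 summit list per library. One summit list, that of control KD replicate 2, has a replicate number unlike its title's and was taken by its sample.

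Gene ends came from a RefSeq gene table of GRCm38.p6, with strands from RefSeq promoters or the authors' table (29325 of 49939 genes, the sources agreeing for 7887 of 7889 genes in both). A 3′ UTR site was given the overlapping gene with the nearest end, a Downstream site the nearest end within 3 kb before it. Matching was tested on simulated data. Python 3.11.15, pandas 2.3.3, numpy 2.4.6 and scipy 1.17.1 were used. The text names the called sites, the 10 strongest, genes of the lists, ends with 3 sites, and the 5 strongest with summits in 1 group alone, and some of these are not reported here, though counts include them. Members and lists were chosen with earlier results of these data known. Sites are not replicates. Each group had 2 libraries, and the test behind the deposited p-values is not given in the sources used here, so what spread they measure is unknown. Binomial intervals cover counting error alone, at 95% confidence.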

Additional observations from a re-analysis of the deposited data

How the results depend on the processing

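Whether same-numbered libraries were handled as pairs is not known. Their deviations in summit presence correlated by 0.03 over the 868 sites. With 2 libraries per group this value cannot show whether they were paired. With the replicate number as a block the log2 ratio was 0.53, from 0.055 in pair 1 and 1.006 in pair 2. The exact sign-flip p was 0.50, the smallest that 2 pairs allow, so this test cannot decide on a difference. Without each library in turn the ratio ranged from 0.176 to 0.894 (lowest without control KD replicate 2, highest without control KD replicate 1), and sites with summits in all remaining libraries numbered 150 to 194. With lists of equal length the ratio was -0.047, and with the other 3 summit settings it kept its direction. Counts of higher and lower sites were 6 and 1 at an FDR below 0.01, and 26 and 14 at an FDR below 0.1. In the 3′ UTR class alone they were 10 and 3, in the Downstream classes alone 9 and 4, because fewer sites enter, and above the median of mean signal 10 and 6. Shares of all sites called at the other thresholds and above that median are not given here, so these counts have no background beside them. The median log2 change was -0.305 above that median, -0.36 with summits in all 4 libraries and -0.17 with summits in 2 or more, the last chosen after seeing the data. Another start lay within 1 kb of 16 sites. Adding the intergenic sites within 3 kb past an end, also chosen after seeing the data, gave 27 higher and 8 lower of 1163 sites. The window of 300 bp for the sequence of all sites was not run, since no genome was used here. Group means without libraries and unknown depth limit every call.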

Other observations

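The 282 Distal Intergenic sites counted above within 3 kb past a plus-strand protein-coding end form a counterpart to the Downstream classes. Of them 7 were higher and 1 lower (2.48% and 0.355%) in the authors' deposited table, against 4.38% and 0.673% of the Distal Intergenic class and 3.26% and 0.846% of all sites. These shares are below those of the class, so the sites named next are examples and no result about the group. Past Fosl2, a gene of the AP-1 family, a site 1048 bp from the end rose from 0.95 to 5.24 (FDR 0.000758, the authors' deposited table). Past Gm42372 (assigned to Ccdc8) a site 459 bp from the end rose from 2.70 to 5.90 (FDR 0.000223, the authors' deposited table), beside the called 3′ UTR site of the same gene. Rises also lay past Arhgef5 (2.88 and 5.82), Ttk, a mitotic kinase gene (0.55 and 4.78), Pdcd1lg2 (assigned to A930007I19Rik, 2.50 and 5.04) and Arhgef10 (7.24 and 8.22). A site past Ppp4r1 was listed at the control KD floor and at 4.33 in Paupar KD. From Arhgef5 to Ppp4r1 the FDRs were 0.000495 to 0.0285, by the authors' deposited table. The lower site was past Gprc5c, an orphan receptor gene (7.48 and 6.31, FDR 0.0045), by the authors' deposited table. Sites past Adcyap1r1, the PACAP receptor gene (0.55 and 3.82, FDR 0.129), and Klf9 (assigned to Mir1192, 1.64 and 4.39, FDR 0.0816), picked after their values were seen, did not pass the threshold in the authors' deposited table.

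Past Malat1, an abundant nuclear long non-coding RNA gene, a Downstream site 660 bp from the end went from 4.92 to 6.08 without passing the threshold (FDR 0.0815, the authors' deposited table). It scored 11.4 in control KD replicate 1 and 22.2 and 29.5 in Paupar KD, and was picked after its values were seen. In the highest quartile of signal, 8 of 145 gene-end sites (5.52%) had a summit in at most 1 library, against 13.4% of all sites there, and they included sites at Zfp36l2, Atg9b, Pcdh1 and Zcchc3.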
